A study of Homo sapiens with 24 samples.

Results

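The ATP-binding cassette (ABC) transporter superfamily was examined in SW1783, a human astrocytoma cell line, after 24 h with 1 of 2 extracts of Schisandrae Fructus, the dried fruit of Schisandra used in East Asian medicine. The members were the protein-coding genes of the expression table named ABCA to ABCG with a number, plus TAP1, TAP2 and CFTR, which gave 48 of 19586 protein-coding genes and of 60675 rows in all. By the best known cargo of each protein they were placed in 3 classes, with 11 in drug efflux, 21 in lipid transport and 16 in other roles. In batch A, cells received vehicle (0.1% DMSO) or the hot water extract (WESF) at 20 (low), 100 (medium) or 500 µg/mL (high). In batch B, cells received vehicle (0.1% DMSO) or the 70% ethanol extract (EESF) at 12.4 (low), 62 (medium) or 310 µg/mL (high). Each of the 8 groups had 3 libraries, all from the same line in L-15 medium with serum, so extract and batch cannot be told apart. The labels do not say whether the 3 libraries of a group came from separate cultures, and p-values measure the spread between these libraries only. Library totals ranged from 18727797 to 20465712 counts in vehicle B, from 26447834 to 28461841 in vehicle A, from 20731749 to 24692309 with high-dose WESF and from 29659110 to 32567395 with high-dose EESF. In the low and medium groups the totals lay between 20713014 and 30288310 counts.

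ABC proteins bind ATP at conserved cassette domains and use its hydrolysis to move a substrate across a membrane. At the plasma membrane of brain barrier cells and of many tumours, ABCB1 (P-glycoprotein), ABCG2 (breast cancer resistance protein) and several ABCC proteins pump drugs and conjugates out of the cell, for which they are known as multidrug transporters. ABCA and ABCG proteins handle sterols and phospholipids, ABCD proteins carry very long chain fatty acids into peroxisomes, the TAP pair loads peptides for MHC class I, and ABCE1 and the ABCF proteins have the cassettes but no membrane part and act on ribosomes.

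Upstream sequences are shown for members that fell with the high dose of both extracts, because they are where a shared sequence could be looked for. RefSeq (GRCh38.p14) gave a promoter for 38 of the 48 members. Of the 38 windows of 120 bases before the start, 12 held no base of an annotated exon, and 3 of these belonged to members that changed in the same direction with both extracts. They are those of the sterol exporter ABCA1 (chr9:104928156-104928275, minus strand), the mitochondrial transporter ABCB10 (chr1:229558708-229558827, minus strand) and the peroxisomal transporter ABCD3 (chr1:94418269-94418388, plus strand). Each is written 5′ to 3′ up to the base before the start, with capitals marking matches on either strand to the GC box (letters GGGCGG), the CAAT box (letters CCAAT), the TATA box (letters TATAAA), the E-box (letters CACGTG) or the AP-1 site (letters TGAGTCA).
ABCA1: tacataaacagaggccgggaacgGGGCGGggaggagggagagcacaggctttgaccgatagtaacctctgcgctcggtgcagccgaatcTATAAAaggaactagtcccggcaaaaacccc
ABCB10: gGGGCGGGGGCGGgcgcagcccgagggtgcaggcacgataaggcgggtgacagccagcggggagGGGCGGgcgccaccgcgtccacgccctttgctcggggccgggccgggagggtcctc
ABCD3: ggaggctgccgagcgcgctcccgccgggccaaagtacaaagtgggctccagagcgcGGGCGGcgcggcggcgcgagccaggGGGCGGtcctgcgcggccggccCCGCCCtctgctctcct

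All 3 windows held at least 1 GC box, and the window of ABCA1 also held a TATA box close to the start. Over the full 250 bases scanned upstream, GGGCGG was present in 20 of 38 members against 42.64% of 35116 RefSeq promoters, in 6 of the 9 with a promoter entry among the 12 members that fell with both extracts and in 3 of the 4 that rose with both. CCAAT was present in 10 of 38 members (32.01% of all promoters), TATAAA in 6 (10.72%), CACGTG in 5 (6.345%) and TGAGTCA in 0 (4.203%). Of those 9 that fell, 1 held CCAAT, 2 held TATAAA and 1 held CACGTG, and of the 4 that rose, 2, 0 and 2. A match is a description of these letters and not a binding site, and other GC-rich motifs overlap the GC box.

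In the vehicle cells the ribosome-associated members were the most abundant per length. Levels per length (CPM per kb, the count scaled to library size and divided by transcript length, as the mean of the means of vehicle A and vehicle B) were 43.9 for ABCE1, which splits ribosomes after termination, and 41.5 for ABCF1, which takes part in translation initiation. ABCF3 at 32.8 and ABCF2 at 29.7 followed, and ABCE1, ABCF1 and ABCF3 did not overlap the next gene in the order over the 6 vehicle libraries. ABCF2, ABCD3 (29.5) and ABCC1 (27.4), the glutathione conjugate exporter, overlapped their neighbours in the order, as did ABCC1 and TAP1 (25.7). The peptide transporter subunit TAP2 was at 22.1. Among the drug efflux genes, ABCC1 was followed by ABCC3 (15.5), ABCC5 (9.41), ABCC4 (8.58), ABCG2 (6.48), ABCC10 (5.33) and ABCB1 (4.29), and ABCC2, a canalicular conjugate pump of liver, was at 0.216. The vehicle libraries of ABCC5 and ABCC4 overlapped, so the order between them is not resolved. ABCA1, the cholesterol exporter, was at 5.06.

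**Figure D1:**
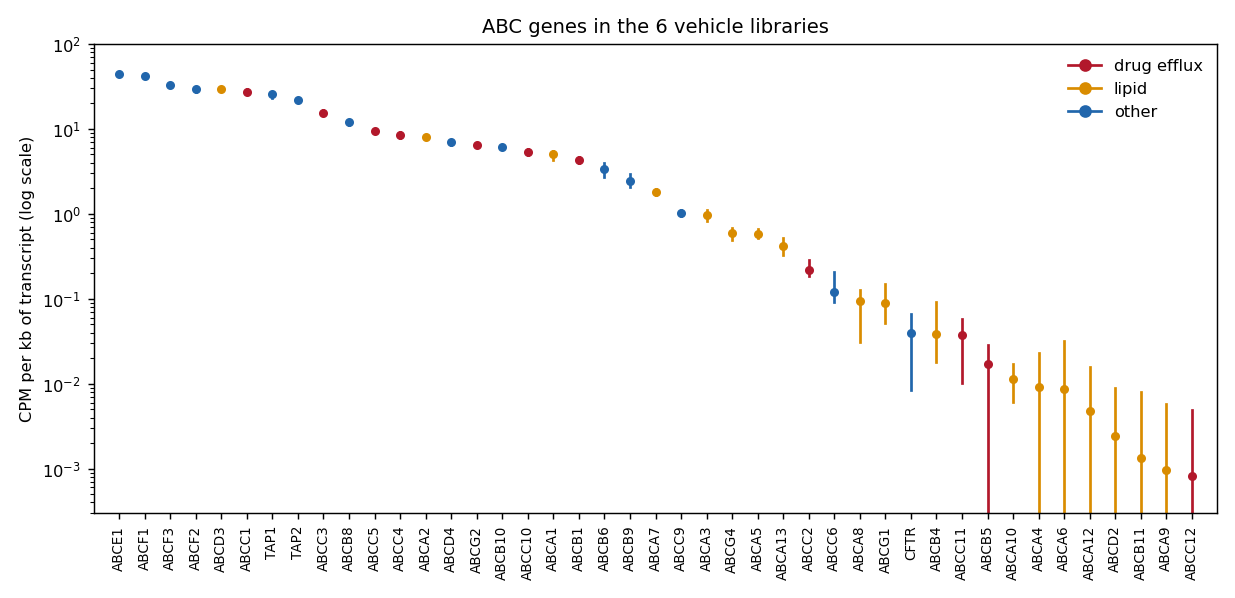
Level of ABC genes in the 6 vehicle libraries, as CPM per kb of transcript on a log scale; points are the mean of the 2 vehicle group means, lines span the lowest to the highest library and colours give the class. The plot holds 43 of the genes, without ABCC8, ABCG5 and ABCG8, which were at 0 in every vehicle library, and lines that reach 0 are clipped at the lower edge; levels run from 43.9 for ABCE1 down to 0.00082 for ABCC12.

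Members below the count filter included several best known from liver, gut, retina or pancreas. Of the 48 members, 31 passed the filter in all 6 comparisons of a dose with its vehicle, ABCA8 passed in all but high-dose WESF, and 16 passed in none. The 16 were the drug efflux genes ABCB5, ABCC11 and ABCC12, the lipid genes ABCA4, ABCA6, ABCA9, ABCA10, ABCA12, ABCB4, ABCB11, ABCD2, ABCG1, ABCG5 and ABCG8, and ABCC8 and CFTR among the others. None had more than 16 counts in a library (ABCB4). ABCC8, a sulfonylurea receptor of pancreatic beta cells, and ABCG8, a sterol exporter of gut and liver, had 0 counts in all 24 libraries, which allows up to 3 counts, or 0.0959 to 0.168 CPM depending on the library. This limit covers counting error only. ABCG1, which passes cholesterol to high density lipoprotein, had 1 to 12 counts, and CFTR, the chloride channel, had 0 to 11.

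The vehicle cells carried part of the astroglial marker list. VIM (4821 CPM in vehicle A), CD44 (2836), SOX9 (81.7), SLC1A3 (31.8) and NES (7.29) were present, while GFAP, S100B, AQP4, ALDH1L1 and SLC1A2 had at most 14 counts in any library, so the defining markers of mature astrocytes were at or near 0. The summed level of the 10 astroglial markers, most of it VIM, was 7699 to 7842 CPM in vehicle A and 6486 to 6728 with high-dose WESF, and 7836 to 8011 in vehicle B and 7270 to 7516 with high-dose EESF. With high-dose WESF and with high-dose EESF, 4 of the 5 tested astroglial markers fell (CD44, SOX9, SLC1A3 and NES), and VIM did not pass the test. Of all tested genes, 34.6% fell with high-dose WESF and 28.7% with high-dose EESF. The summed level of 4 neuronal markers, of which SNAP25 was the most abundant in the vehicles, was 57.3 to 61.9 CPM in vehicle A and 24.4 to 26.1 with high-dose WESF, and 61.9 to 65.0 in vehicle B and 25.6 to 30.4 with high-dose EESF. SNAP25, SYT1 and MAP2 fell with both extracts. RBFOX3, at 1 to 21 counts per library, was called higher with high-dose WESF (log2 fold change 2.60, SE 0.43, adjusted p 3.83e-05) and was not tested with high-dose EESF. At such counts RBFOX3 probably passed the count filter only through the treated group, where it was high, so nothing is drawn from its call. Among 4 microglial or leukocyte markers, PTPRC alone was tested (10.2 CPM in vehicle A, 2.12 with high-dose WESF, 9.81 in vehicle B, 1.88 with high-dose EESF), and AIF1, CX3CR1 and ITGAM had at most 4 counts. MBP, the most abundant of 3 oligodendrocyte markers, rose from 6.80 to 12.6 CPM with high-dose WESF and from 6.596 to 9.66 with high-dose EESF, with MOG at 0 in every library. KRT8, the most abundant of 3 epithelial markers, rose from 15.3 to 17.6 and from 15.8 to 19.7 CPM, and EPCAM and CDH1 had at most 5 counts. The sum of 4 endothelial markers was at most 1.65 CPM in the vehicles, most of it PECAM1, which fell with high-dose WESF and did not pass the test with EESF. These markers moved at the same doses as the ABC genes below, and their part in those changes was not tested. All libraries came from 1 cell line, so these levels do not show that other cell types were present. In bulk RNA, fewer cells with a marker and less of its RNA per cell cannot be told apart.

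At the high doses, members of the family were lower more often than higher. With high-dose WESF, 6 of 31 tested members rose and 16 fell at an adjusted p under 0.05 (edgeR, adjusted over all genes), against 34.3% of 13129 tested genes that rose and 34.6% that fell. With high-dose EESF, 6 of 32 rose and 13 fell, against 29.3% and 28.7% of 13092 tested genes. The median log2 fold change of the tested members was −0.19 with WESF and −0.10 with EESF, and that of all tested genes was 0.00082 and 0.0070. Past a fold of 1.5 (a differentially expressed gene, DEG), 0 members rose and 4 fell with WESF (ABCB1, ABCB9 and ABCC6 among them), against 11.1% of tested genes higher and 13.0% lower, and 0 rose and 3 fell with EESF (ABCB1, ABCA5 and ABCA8), against 8.21% and 9.17%. ABCG2 and ABCA1 lay just inside this fold at a log2 fold change of −0.58 each with WESF, next to ABCB1 at −0.65 outside it. The count of WESF DEGs was 8 without vehicle A replicate 1 and 7 without WESF high replicate 3. ABCC6 with WESF and ABCA8 with EESF reached the level of the low-count filter (0.403 and 0.411 CPM) in the 3 vehicle libraries and in 0 of the 3 treated ones, so they were tested only through the group where they were high. In each of the 6 WESF fits that left out 1 library, ABCB4, at 2 to 16 counts per library, counted as a DEG that rose, again only through the group where it was high (0 vehicle and 2 treated libraries at the filter level), joined by ABCB6 without vehicle A replicate 1 and by TAP1 without WESF high replicate 3.

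**Figure D2:**
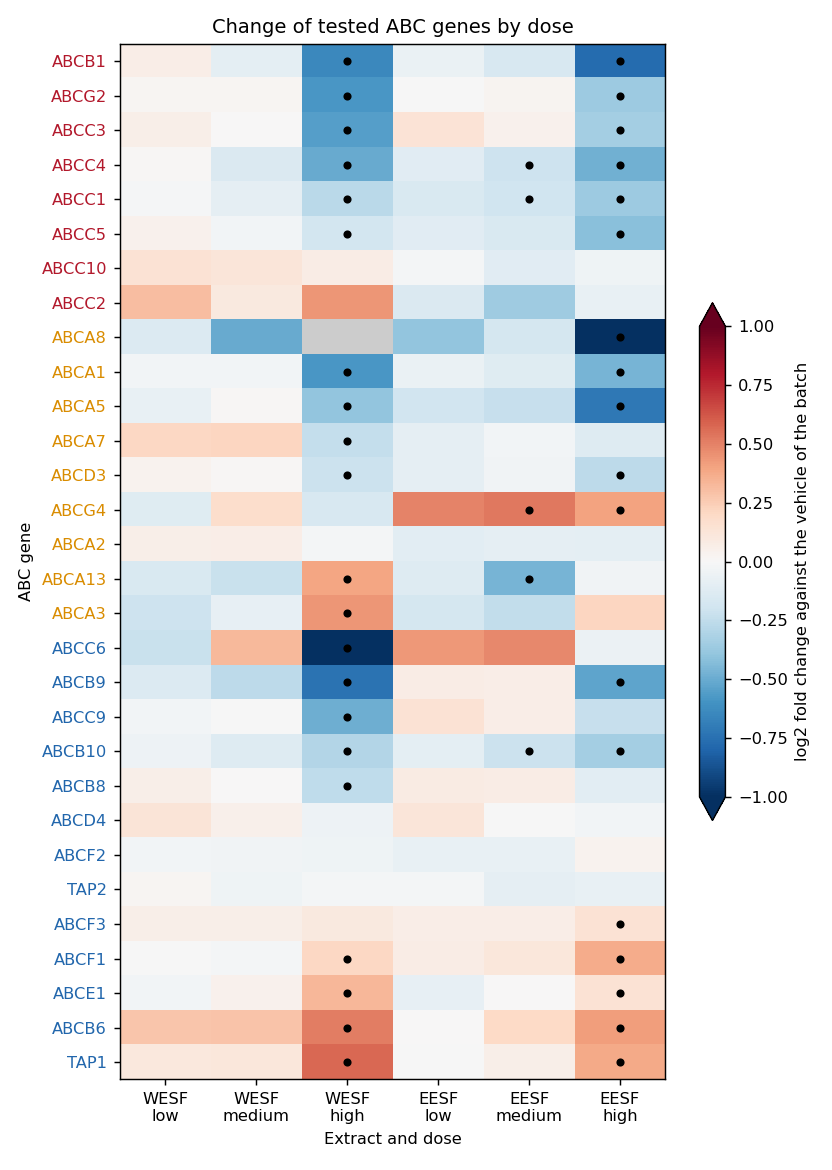
log2 fold change of 30 tested ABC genes (rows, names coloured red for drug efflux, orange for lipid and blue for other) at each dose of WESF and EESF against the vehicle of the batch. Black dots mark an adjusted p under 0.05, colours are capped at 1 in either direction and grey marks ABCA8 where it was not tested; the dots stand almost entirely in the 2 high-dose columns, with 21 for WESF and 18 for EESF against 5 for medium-dose EESF.

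Most tested drug efflux genes fell with both extracts. ABCB1, ABCC1, ABCC3, ABCC4, ABCC5 and ABCG2, 6 of the 8 tested, were lower with high-dose WESF (median log2 fold change of the 8, −0.38) and lower with high-dose EESF (median −0.36), against 34.6% and 28.7% of all tested genes lower, and 0 of 8 rose with either. The summed level of the 11 drug efflux genes was 431.1 to 456.7 CPM in vehicle A and 347.5 to 353.6 with high-dose WESF, and 441.6 to 477.5 in vehicle B and 330.9 to 363.7 with high-dose EESF. The groups did not overlap, and ABCC1 made the largest share of the sum. Shares of all tested genes whose groups do not overlap are not given here. A lack of overlap, here and below, therefore does not set the members apart from other genes.

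ABCB1 (ENSG00000085563, chr7:87503017-87713323 on GRCh38, minus strand), which exports a wide range of hydrophobic drugs, fell most among the drug efflux genes with both extracts. In vehicle A its 3 libraries were at 20.5, 23.8 and 22.2 CPM (normalised across all 24 libraries), and with high-dose WESF at 15.1, 14.9 and 12.5. In vehicle B they were at 21.6, 21.5 and 24.6, and with high-dose EESF at 15.2, 12.5 and 12. Every high-dose library lay below every vehicle library. The level fell by 36.1% with WESF (log2 fold change −0.65, SE 0.079, adjusted p 1.51e-06) and by 41.3% with EESF (−0.77, SE 0.095, adjusted p 2.44e-05). The gene overlaps RUNDC3B on the opposite strand, and although the library kit is directional the strand setting of the counting is not given in the sources used here.

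ABCG2 (ENSG00000118777, chr4:88090150-88231628, minus strand), an exporter of drugs and urate, was at 28.2, 27.9 and 25.6 CPM in vehicle A and at 17.8, 18.2 and 18.6 with high-dose WESF. It was at 27.7, 27.7 and 26.4 in vehicle B and at 22.2, 19.6 and 21.8 with high-dose EESF. The groups did not overlap, and ABCG2 fell by 33.1% (adjusted p 2.54e-07) and by 22.3% (adjusted p 0.000563). ABCC4, which exports cyclic nucleotides and prostaglandins, was at 45.6, 52.0 and 53.8 CPM in vehicle A against 35.5, 35.7 and 35.8 with high-dose WESF. In batch B it was at 47.1, 49.6 and 53.2 in the vehicle and 39.9, 34.5 and 33.1 with high-dose EESF, so that the fall was 29.3% and 28.4% without overlap.

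ABCC3, a basolateral exporter of glucuronides and bile acids, was at 88.5, 84.1 and 89.2 CPM in vehicle A against 60.4, 60.1 and 58.1 with high-dose WESF, and at 90.01, 84.2 and 94.2 in vehicle B against 70.7, 73.2 and 68.3 with high-dose EESF. The falls were 31.8% and 21.0%. ABCC5, another exporter of cyclic nucleotides, went from 52.1, 55.9 and 54.5 CPM to 47.8, 48.0 and 47.2 with WESF, a fall of 12.1%, and from 53.5, 55.0 and 55.7 to 41.7, 42.3 and 38.75 with EESF, a fall of 25.3%. ABCC1 fell by 16.8% from 176 ± 6.59 CPM (SD, n = 3) with WESF and by 22.3% from 181 ± 12 (n = 3) with EESF. The groups of ABCC3, ABCC5 and ABCC1 did not overlap in either batch, which is given without the share of all genes. The remaining drug efflux genes did not pass the test, with log2 fold changes of 0.07 and −0.04 for ABCC10 and of 0.44 and −0.07 for ABCC2, which had 19 to 47 counts per library.

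**Figure D3:**
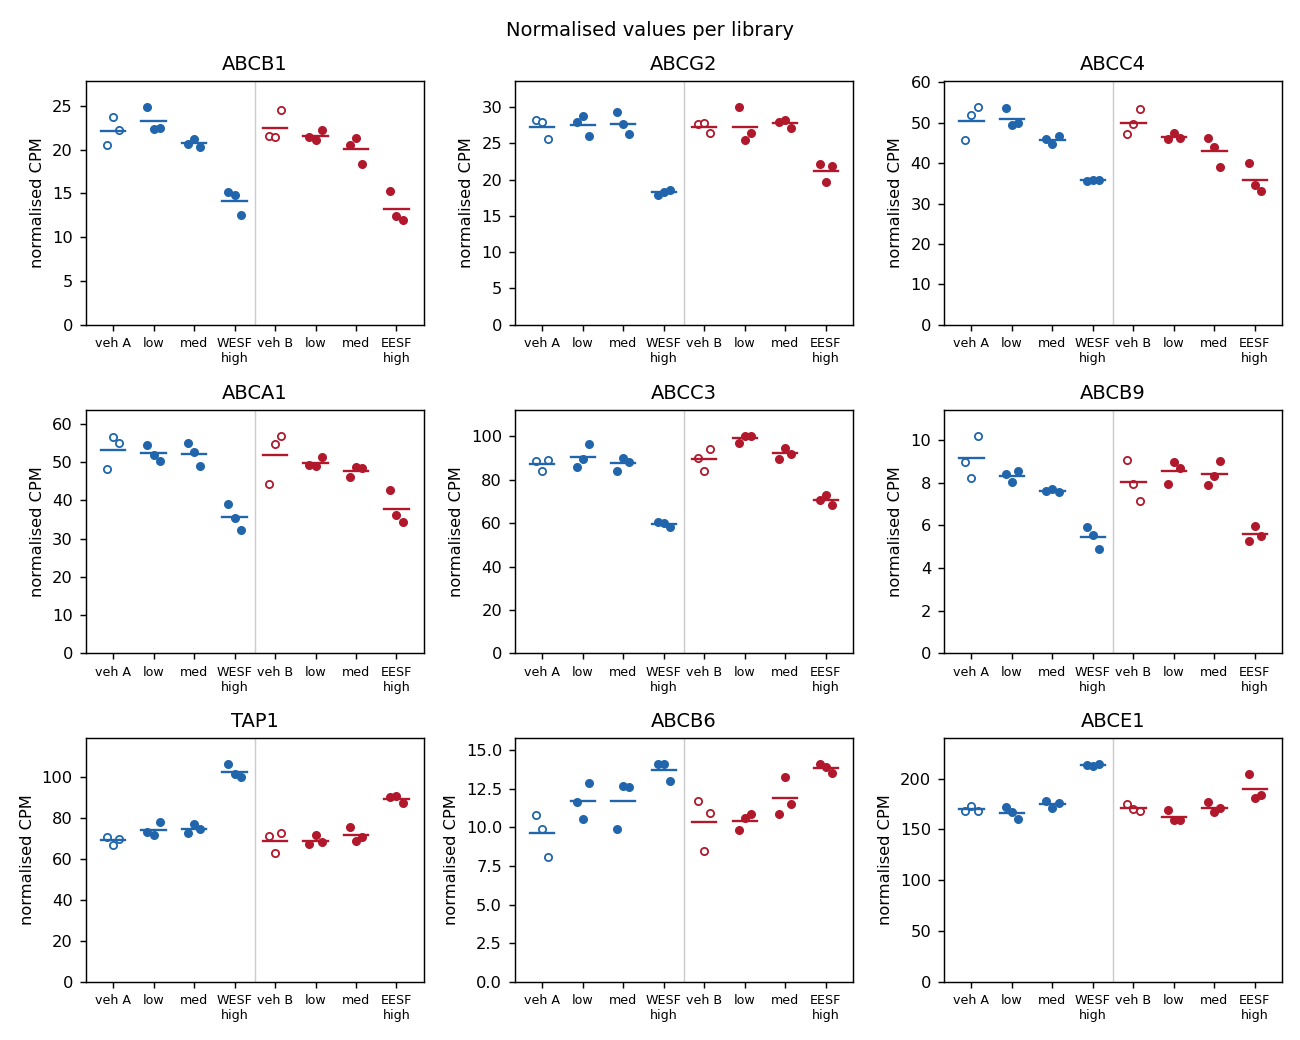
Normalised CPM of 9 ABC genes in each of the 24 libraries, by group (open circles are vehicles, filled circles extract doses, blue for batch A with WESF and red for batch B with EESF, bars the group means of 3 libraries). The low and medium groups stand near their vehicle, while at the high dose ABCB1, ABCG2, ABCC4, ABCC3, ABCA1 and ABCB9 lie below every vehicle library and TAP1, ABCB6 and ABCE1 above. How many of all genes separate in this way is not given.

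Carriers for drug uptake and exchange (SLCO, SLC22, SLC29 and SLC47 genes, a list of 16 with 10 tested) did not move as 1 group. With high-dose WESF 2 rose and 4 fell (median log2 fold change −0.19), and with high-dose EESF 2 rose and 3 fell (median 0.08). Of all tested genes, 34.3% rose and 34.6% fell with WESF and 29.3% rose and 28.7% fell with EESF, with medians near 0, so the shares of the 10 that fell were near those of all genes. SLCO4A1, a thyroid hormone and organic anion carrier, rose from 9.66 ± 0.866 to 24.1 ± 0.750 CPM with WESF and from 8.92 ± 1.08 to 24.1 ± 2.34 with EESF (SD, n = 3 each). The carnitine carrier SLC22A5 rose from 27.5 to 43.7 and from 28.8 to 36.8 CPM. The prostaglandin carrier SLCO2A1 fell from 9.71 to 5.31 and from 10.0 to 7.23 CPM, and SLC22A3, an organic cation carrier, from 3.06 to 1.66 and from 2.95 to 2.03.

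Lipid transporters moved in both directions. Of 9 tested with high-dose WESF, 2 rose and 5 fell (median log2 fold change −0.21), and of 10 tested with high-dose EESF, 1 rose and 5 fell (median −0.19), against 34.3% higher and 34.6% lower over all tested genes with WESF and 29.3% and 28.7% with EESF. ABCA1 (ENSG00000165029), which hands cholesterol and phospholipid to apolipoprotein A-I, was at 48.1, 56.6 and 55.0 CPM in vehicle A and at 39.0, 35.4 and 32.4 with high-dose WESF. It was at 44.3, 54.7 and 56.9 in vehicle B and at 42.6, 36.1 and 34.4 with high-dose EESF, where the highest treated library lay under the lowest vehicle library by a small margin. The falls were 33.1% (log2 fold change −0.58, SE 0.071, adjusted p 1.35e-06) and 27.5% (−0.46, SE 0.098, adjusted p 0.00147).

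Other genes of cholesterol efflux around the LXR receptors did not share a direction with ABCA1. In a list of 18 with 16 tested, 5 rose and 7 fell with high-dose WESF (median −0.0029) and 7 rose and 6 fell with high-dose EESF (median −0.05), where 34.3% and 34.6% of all genes rose and fell with WESF and 29.3% and 28.7% with EESF. NR1H3 (LXR alpha), the nuclear receptor that drives ABCA1, rose from 2.46 to 3.79 and from 1.95 to 3.42 CPM, and CYP27A1, which makes 27-hydroxycholesterol, from 1.16 to 2.20 and from 1.11 to 2.50. SMPDL3A, a sphingomyelinase-like enzyme and LXR target, fell from 2.73 to 1.64 and from 3.02 to 1.46. MYLIP, the ligase that degrades the LDL receptor, fell from 11.7 to 6.84 CPM with WESF and was at 10.2 and 8.93 in batch B, where it did not pass the test (adjusted p 0.0968).

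ABCD3, a peroxisomal transporter for branched and dicarboxylic acids, was at 102, 110 and 106 CPM in vehicle A and at 94.3, 91.0 and 89.5 with high-dose WESF. In batch B it was at 104, 109 and 107 in the vehicle and at 96.3, 84.8 and 86.2 with high-dose EESF. The groups did not overlap in either batch, and the fall was 13.7% and 16.4%. In a list of 12 genes of peroxisomal fatty acid oxidation and membrane import, 0 rose and 7 fell with high-dose WESF (median −0.21) and 1 rose and 6 fell with high-dose EESF (median −0.17), beside 34.6% and 28.7% of all tested genes that fell and 34.3% and 29.3% that rose. PEX3, which docks incoming membrane proteins, fell from 25.4 ± 0.945 to 15.5 ± 0.201 CPM and from 23.7 ± 1.52 to 16.0 ± 1.28 (SD, n = 3 each). With EESF the count called in this list was 3 without vehicle B replicate 3, 4 without EESF high replicate 2 and 4 without EESF high replicate 3.

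ABCA5, a lysosomal and endosomal member, was at 4.46, 4.27 and 4.63 CPM in vehicle A against 3.13, 4.14 and 2.98 with high-dose WESF, and at 4.28, 5.22 and 5.53 in vehicle B against 3.71, 3.00 and 2.46 with high-dose EESF. The fall was 39.0% with EESF (log2 fold change −0.71, SE 0.16, adjusted p 0.00256) and 23.8% with WESF (adjusted p 0.0209). The call with WESF was lost under DESeq2 (adjusted p 0.0595) and without vehicle A replicate 3 (0.0568), WESF high replicate 1 (0.0777) or WESF high replicate 3 (0.104). ABCA8, with 3 to 21 counts per library, was at 0.619, 0.563 and 0.558 CPM in vehicle B and 0.353, 0.160 and 0.199 with high-dose EESF (log2 fold change −1.29, SE 0.37, adjusted p 0.00990, and 0.0570 under DESeq2). ABCA8 passed the low-count filter there only through vehicle B, where it was high, so nothing is drawn from this call.

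ABCA3, the phospholipid transporter of lung surfactant, rose by 36.2% with WESF (6.41, 6.18 and 7.09 against 9.36, 8.03 and 9.33 CPM, adjusted p 0.000768) and had a log2 fold change of 0.22 with EESF (adjusted p 0.133, and 0.0311 without vehicle B replicate 2). ABCA13 rose by 31.7% with WESF (adjusted p 0.0116), a call lost without vehicle A replicate 1 (log2 fold change 0.24, adjusted p 0.0599) or WESF high replicate 3 (0.0678), and its vehicle libraries of 5.79, 7.52 and 9.00 CPM overlapped the treated ones of 8.81, 9.95 and 10.6. ABCA7, linked to phagocytosis and Alzheimer disease, fell by 15.3% with WESF (adjusted p 0.0194, lost under DESeq2 at 0.0602, with more groups in the fit at 0.0653 and without WESF high replicate 3 at 0.122). ABCG4, a sterol exporter of brain, rose by 32.4% with EESF (adjusted p 0.0477) from 2.12 to 2.81 CPM, and the call was lost under DESeq2 (0.164), with no low-count filter (0.0566), over all genes of the table (0.0663) and without vehicle B replicate 1 (0.0908), 2 (0.0655) or 3 (0.153) or EESF high replicate 2 (0.126) or 3 (0.139). ABCA2, a lipid transporter of oligodendrocytes, did not pass the test, with log2 fold changes of −0.02 and −0.10.

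In the class of other roles, 4 of 14 tested rose and 5 fell with high-dose WESF (median −0.03), and 5 rose and 2 fell with high-dose EESF (median 0.00036). The shares with WESF were near those of all tested genes (34.3% higher and 34.6% lower), which were 29.3% and 28.7% with EESF. The peptide transporters among them split. TAP1 (ENSG00000168394, chr6:32845209-32853816, minus strand), a subunit of the pump that feeds peptides to MHC class I, was at 70.4, 66.6 and 69.8 CPM in vehicle A and at 106, 102 and 99.8 with high-dose WESF. It was at 71.3, 62.9 and 72.4 in vehicle B and at 90.2, 90.7 and 87.2 with high-dose EESF. No treated library overlapped a vehicle library, and TAP1 rose by 48.6% (log2 fold change 0.57, SE 0.046, adjusted p 8.42e-09) and 29.8% (0.38, SE 0.061, adjusted p 0.000210), the largest rise in log2 fold change among the 31 members that passed the low-count filter with WESF. Its partner TAP2 did not pass the test, at log2 fold changes of −0.02 and −0.08. ABCB9 (TAP-like), a lysosomal peptide transporter, fell from 9.00, 8.25 and 10.2 to 5.92, 5.56 and 4.91 CPM with WESF (−0.74, SE 0.11, adjusted p 1.38e-05) and from 9.05, 7.93 and 7.13 to 5.27, 5.98 and 5.50 with EESF (−0.53, SE 0.11, adjusted p 0.00142), without overlap. It overlaps OGFOD2 and ARL6IP4 on the opposite strand, and TAP1 overlaps PSMB9 and the antisense RNA PSMB8-AS1, so that reads could be shared if strand was not used in the counting.

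Of 17 genes of MHC class I peptide loading, 6 rose and 3 fell with high-dose WESF (median 0.07) and 7 rose and 3 fell with high-dose EESF (median 0.04), and 0 passed a fold of 1.5. Over all tested genes 34.3% rose and 34.6% fell with WESF, and 29.3% rose and 28.7% fell with EESF, so the share of the list that rose with WESF was near that of all genes. The heavy chains HLA-B, HLA-C and HLA-E rose with both extracts, with log2 fold changes of 0.41, 0.26 and 0.48 with WESF and 0.31, 0.26 and 0.49 with EESF. These genes share sequence, and their counts are uncertain where reads could be split among them. PSMB9, an immunoproteasome subunit whose gene overlaps TAP1 on the opposite strand, had log2 fold changes of −0.01 and −0.04, and NLRC5, the transactivator of class I genes, fell by 0.53 and 0.39 on the log2 scale.

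Mitochondrial members were mixed. ABCB6, a porphyrin transporter, rose from 10.8, 9.92 and 8.10 to 14.1, 14.1 and 13.0 CPM with high-dose WESF (log2 fold change 0.51, SE 0.094, adjusted p 0.000115) and from 11.7, 8.46 and 10.9 to 14.1, 13.9 and 13.5 with high-dose EESF (0.42, SE 0.10, adjusted p 0.00394), without overlap. ABCB10, which supports haem synthesis, fell by 18.2% from 23.5 ± 0.791 CPM and by 21.1% from 24.1 ± 0.845 (SD, n = 3 each). ABCB8 fell by 16.2% with WESF (adjusted p 0.000131) and had a log2 fold change of −0.11 with EESF (adjusted p 0.147). Of 16 genes of haem and iron-sulfur cluster synthesis, 8 rose and 6 fell with WESF (median 0.09) and 10 rose and 5 fell with EESF (median 0.22), against 34.3% and 34.6% of all tested genes with WESF and 29.3% and 28.7% with EESF. The early haem enzymes ALAD (48.3 to 25.2 and 47.4 to 29.2 CPM) and UROS (33.5 to 18.0 and 34.8 to 24.2) fell, while the mitochondrial iron importer SLC25A28 rose (20.2 to 29.3 and 19.8 to 33.5).

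The soluble members that act on ribosomes rose or did not pass the test. ABCE1 was at 168, 173 and 169 CPM in vehicle A and at 214, 213 and 214 with high-dose WESF, a rise of 25.6% (adjusted p 1.82e-06) without overlap. In batch B it was at 175, 170 and 168 in the vehicle and at 204, 181 and 184 with high-dose EESF, a rise of 10.8% (adjusted p 0.0379). ABCE1 overlaps ANAPC10 and OTUD4 on the opposite strand. ABCF1 was at 140, 140 and 144 CPM in vehicle A against 157, 172 and 160, a rise of 15.4%, and at 143, 139 and 142 in vehicle B against 171, 185 and 194, a rise of 29.4%. ABCF3 rose by 10.7% with EESF (adjusted p 0.0296) and had a log2 fold change of 0.10 with WESF (adjusted p 0.0810), and ABCF2 did not pass the test at −0.04 and 0.03. With EESF the call of ABCE1 was lost with no low-count filter (adjusted p 0.0515), over all genes of the table (0.0704) and without vehicle B replicate 1 (adjusted p 0.0620), 2 (0.143) or 3 (0.117) or EESF high replicate 1 (0.116, log2 fold change 0.09), and that of ABCF3 under DESeq2 (0.0521) and without vehicle B replicate 1 (0.0586), 2 (0.135) or 3 (0.0744) or EESF high replicate 2 (0.0973) or 3 (0.117). In a list of 13 partners in ribosome recycling and GCN1 signalling, 10 rose and 1 fell with WESF (median 0.25), and 6 rose and 0 fell with EESF (median 0.12, and 3 called without vehicle B replicate 2), while 34.3% and 29.3% of all tested genes rose and 34.6% and 28.7% fell. GCN1, a scaffold that binds stalled ribosomes, rose from 197 to 323 and from 194 to 227 CPM, and EIF2S2, the beta subunit of eIF2, from 147 to 205 and from 144 to 217.

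Of the other members, ABCC9, the sulfonylurea receptor of potassium channels in muscle and vessels, fell by 28.5% with WESF (9.18 ± 0.418 to 6.56 ± 0.445 CPM, SD, n = 3 each) and had a log2 fold change of −0.23 with EESF (adjusted p 0.121, and 0.00551 without EESF high replicate 1). ABCC6, whose loss causes pseudoxanthoma elasticum, had 3 to 30 counts per library and was at 0.577, 1.06 and 0.467 CPM in vehicle A against 0.169, 0.148 and 0.350 with high-dose WESF (log2 fold change −1.63, SE 0.44, adjusted p 0.00325). ABCC6 passed the low-count filter there only through vehicle A, where it was high, so nothing is drawn from this call. Its reads can be shared with 2 near-identical pseudogenes, and with their counts added the log2 fold change was −0.99 (adjusted p 0.0108). With EESF it was −0.06 (adjusted p 0.892). ABCD4, which takes part in cobalamin release from lysosomes, did not pass the test at −0.05 and −0.03.

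Lower doses changed few members. With medium-dose WESF 0 of 32 tested members passed the test, against 4.10% of all genes called in either direction, and without vehicle A replicate 1 the count was 3. At an unadjusted p under 0.05 were 6 members in edgeR, against 2753 of 13112 tested genes. In DESeq2 0 members were called and 4 had an unadjusted p under 0.05, against 1934 genes. With low-dose WESF 0 of 32 passed (2 at an unadjusted p under 0.05, and 0 called with 1 in DESeq2), against 0% of all genes called. Unadjusted, 470 of 13131 tested genes were under 0.05 in edgeR and 198 in DESeq2. With low-dose EESF 0 of 32 passed (5 at an unadjusted p under 0.05, and 0 called with 3 in DESeq2), against 9.35% of all genes called. Unadjusted, 3393 of 12892 tested genes were under 0.05 in edgeR and 2472 in DESeq2. Leaving out vehicle B replicate 1 gave 3 called members and leaving out vehicle B replicate 3 gave 1. With medium-dose EESF, ABCG4 rose (log2 fold change 0.52, SE 0.16, adjusted p 0.0403) and ABCC1 (−0.20), ABCC4 (−0.21), ABCB10 (−0.22) and ABCA13 (−0.46, SE 0.13, adjusted p 0.0236) fell, which was 1 and 4 of 32 against 6.90% and 8.48% of all genes. In place of 5, DESeq2 called 3, the fits that left out vehicle B replicate 2 or EESF medium replicate 3 called 0, the fit that left out vehicle B replicate 3 called 1, and those that left out EESF medium replicate 1 or 2 called 2 and 3. Between the vehicles of the 2 batches, 0 of 32 members passed the test (0 at an unadjusted p under 0.05, and 0 in DESeq2), against 0% of all genes called. Unadjusted, 371 of 13001 tested genes were under 0.05 in edgeR. Vehicle libraries with the same replicate number in the 2 batches deviated together, and with the number as a block 236 genes were higher in vehicle B and 242 lower. With this block 0 of 32 members were called and 4 had an unadjusted p under 0.05, against 2060 of 13001 tested genes.

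ABCB1 shows the shape over the doses. With low, medium and high WESF the means were 23.3, 20.8 and 14.2 CPM against 22.2 in vehicle A, and with EESF 21.6, 20.1 and 13.2 against 22.5 in vehicle B. Low-dose and medium-dose WESF libraries and low-dose EESF libraries overlapped their vehicle. The medium-dose EESF libraries, at 20.5, 21.3 and 18.3 CPM, lay below the vehicle B libraries without passing the test (log2 fold change −0.16, adjusted p 0.155).

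The high doses differ (500 and 310 µg/mL). In the authors' preliminary toxicity screening the high WESF dose showed no toxicity, while the high EESF dose was partly inhibitory. Set side by side at these doses, 31 members were tested with both extracts. With both, 12 fell and 4 rose (TAP1, ABCB6, ABCE1 and ABCF1), 0 moved in opposite directions and 7 passed the test with neither. Of all tested genes, 34.6% fell and 34.3% rose with WESF, and 28.7% fell and 29.3% rose with EESF. Shares of all genes called with both extracts are not given here, so these counts do not set the family apart from other genes. With WESF alone 2 rose (ABCA3 and ABCA13) and 4 fell (ABCA7, ABCC9, ABCB8 and ABCC6), and with EESF alone 2 rose (ABCG4 and ABCF3). Of these, ABCC6 was tested with WESF only through the group where it was high, so nothing is drawn from its call. The 2 sets of vehicles deviated together by number, as given above, so the counts shared by both extracts do not come from unrelated controls. Passing in 1 extract does not show a difference between them, so the difference of the 2 responses was tested itself. In that test 2 of 33 members had the higher response with EESF (ABCC3 among them) and 1 the lower (ABCC5), against 12.7% and 13.3% of 13376 tested genes.

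ABCC3 fell less with EESF (difference in log2 fold change 0.22, SE 0.069, adjusted p 0.0312), and this call was lost without vehicle A replicate 1 (adjusted p 0.0628) or 3 (0.0634), WESF high replicate 2 (0.0543) or 3 (0.0790), vehicle B replicate 2 (0.0989) or EESF high replicate 2 (0.0844). ABCC5 fell more with EESF (difference −0.23, SE 0.069, adjusted p 0.0213), a call lost without vehicle A replicate 1 (0.0584) or EESF high replicate 3 (0.0598). For ABCB1 the difference was −0.12 (SE 0.14, adjusted p 0.544), for ABCG2 0.22 (SE 0.087, adjusted p 0.0762) and for TAP1 −0.19 (SE 0.074, adjusted p 0.0627). ABCG2 gained the call without vehicle A replicate 3 (0.0435) or EESF high replicate 2 (0.0381), and TAP1 without vehicle B replicate 2 (0.0168) or EESF high replicate 1 (0.0498) and with more groups in the fit (0.0344). With the vehicles paired across the batches by number as a block, 6 members were called, with TAP1 (0.0254), ABCE1 (0.0445) and ABCC6 (0.0465) added and ABCC3 (0.0118) and ABCC5 (0.0128) still called. A replicate block within batches ended the calls of ABCC3 (adjusted p 0.0981) and ABCC5 (0.0649). The number of members called was 1 without vehicle A replicate 1 and 9 without EESF high replicate 1.

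**Figure D4:**
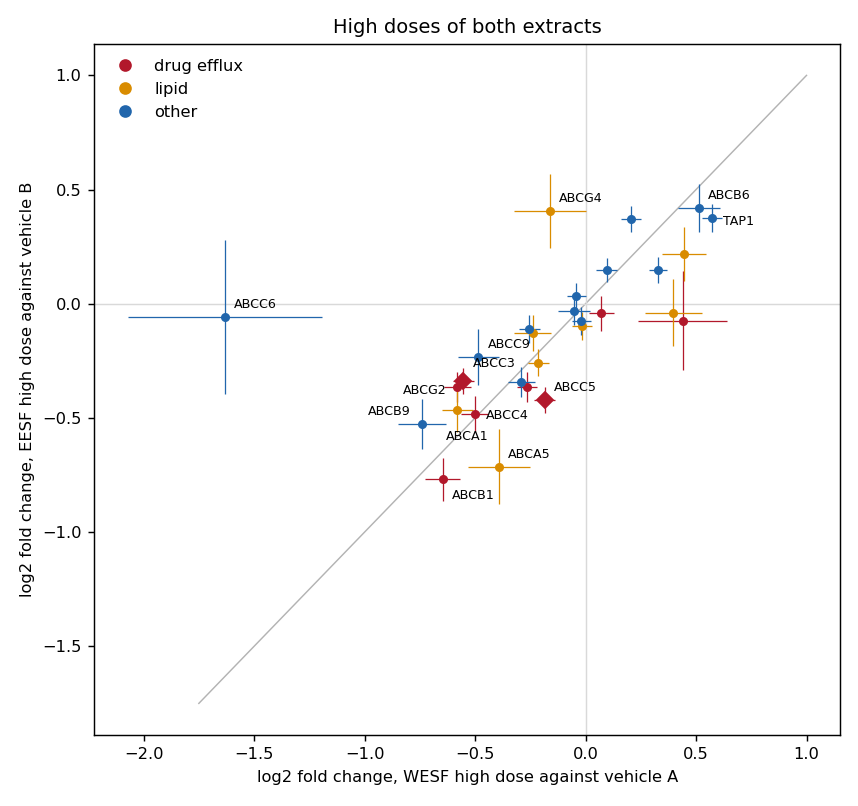
log2 fold change of 29 ABC genes tested with both extracts, high-dose WESF against vehicle A on the horizontal axis and high-dose EESF against vehicle B on the vertical axis; bars are standard errors, the diagonal marks equal change, colours give the class and diamonds 2 genes whose responses differed. Most drug efflux genes sit in the lower left with ABCB1 lowest at −0.65 and −0.77, TAP1 and ABCB6 in the upper right, and ABCC6 far left at −1.63 with a standard error of 0.44. With WESF, ABCC6 was tested only through vehicle A, where it was high.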

How the data were processed

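SW1783 cells were treated for 24 h in 8 groups of 3, and mRNA was sequenced as 100 bp pairs from a directional library kit. The deposited values are expected counts per gene, made by the authors with FastQC 0.11.9, Trim Galore 0.6.6, STAR 2.7.9a on GRCh38 and RSEM 1.3.3, without normalization. Of these values 10.9% were not whole, and they were rounded for testing. The strand setting of the counting is not given in the sources used here. Ensembl identifiers were matched to GENCODE 44.

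Protein-coding genes were tested with edgeR 4.0.16 (R 4.3.3) by its quasi-likelihood test, with filterByExpr and TMM scaling, on the 6 libraries of each comparison or the 12 of the comparison of extracts, and p-values were adjusted by Benjamini-Hochberg over all genes. A member was called at an adjusted p under 0.05. SE is the absolute log2 fold change over the square root of F. CPM values use 1 TMM scaling over 24 libraries, and CPM per kb the length of the canonical transcript. DESeq2 1.42.0 was an alternative, as were its size factors, no filter, all genes, more groups in the fit, a replicate block, pseudogene counts added and each replicate left out. On simulated counts for high-dose WESF with 196 tested genes changed 2-fold among 13037, edgeR recovered 95.4% and 7.88% of its calls were false, and DESeq2 recovered 90.8% with 4.81% false. In the data, 4497 of 13129 genes were called higher with high-dose WESF and 4543 lower, and most member changes were under 2-fold. These rates therefore do not carry over to the calls reported here.

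Deviations from the group means of same-numbered vehicle libraries correlated across the batches (r 0.36, 0.16 and 0.26, against −0.28 to 0.028 for different numbers), so these were taken as paired from the data, since the labels give no reason. They differed beyond counting noise (chi-square per degree of freedom 3.24 to 3.51) and were counted separately.

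The members, classes and lists were chosen with earlier results of these data known. All members enter the counts, and some members and list genes are not reported here by name. Members called at a high dose or between extracts are otherwise described singly, and of each list up to 4 genes past a fold of 1.5 with the largest change are named. HLA genes, PSMB9 and NLRC5 were named after their values were seen.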

Additional observations from a re-analysis of the deposited data

Results flagged for a closer look

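The response to the 2 high doses differed by a test of the difference itself for ABCC3 and ABCC5. ABCC3 had the higher log2 fold change with EESF by 0.22 and ABCC5 the lower, with a difference of −0.23. Leaving out 1 library ended the call of ABCC3 in 6 of the 12 fits that did so (adjusted p 0.0543 to 0.0989) and that of ABCC5 in 2 (0.0584 and 0.0598), and neither was called with a replicate block within batches, while both were called with the vehicles paired across batches. Extract, dose and batch differ together in this comparison and cannot be told apart. Groups of 3 libraries were too small for a test of single libraries that stand apart.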

How the results depend on the processing

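Over the high-dose and between-extract comparisons, 1058 values of single members under an alternative kept direction and side of the threshold, 43 lost a call, 22 gained one and 12 changed sign. Sign changes were seen only in members not called, when 1 library was left out. The ranges over these were −0.18 to 0.058 for ABCA13 and −0.27 to 0.18 for ABCC6 with high-dose EESF, and between extracts −0.12 to 0.67 for ABCA8, −0.23 to 0.011 for ABCB6 and −0.065 to 0.092 for ABCC4. Leaving out 1 library gave 21 to 23 called members with high-dose WESF and 16 to 19 with high-dose EESF, with 5 to 8 and 2 to 4 DEGs, 0 to 3 called with medium-dose WESF, 0 to 5 with medium-dose EESF, 0 to 3 with low-dose EESF and 1 to 9 between extracts. The cause was not tested. DESeq2 called 3 members with medium-dose EESF against 5. Without the low-count filter, which adds genes to the test, there were 8 DEGs with high-dose WESF against 4 and 1 member was called with low-dose EESF against 0. Replicate numbers did not pair the samples within a batch (correlations of same-numbered deviations from −0.26 to 0.13). With a replicate block, 1 member was called with low-dose EESF against 0 and 1 between extracts against 3, where ABCC3 (adjusted p 0.0981) and ABCC5 (0.0649) were no longer called. The block also ended the calls of ABCE1, ABCF3 and ABCG4 with high-dose EESF and left 4 peroxisomal genes called there against 7. More groups in the fit gave 7 between extracts, and a block on the vehicles alone, paired across batches and chosen after seeing the data, gave 6. DESeq2 size factors moved the median of all genes by under 0.01 on the log2 scale. Depth limits the 16 members tested at no dose and ABCA8, ABCC6 and ABCC2, with few counts per library.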

Other observations

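The table also held 22 rows of pseudogenes and antisense RNAs named after ABC members, which were not counted as members. Pseudogene rows entered the fits with pseudogene counts added and those over all genes of the table. Of the 22 rows, 17 had a highest count of 2 or less in any library. ABCA11P had 54 to 115 counts per library, with log2 fold changes of −0.38 (SE 0.17, adjusted p 0.0726) with high-dose WESF and −0.37 (SE 0.15, adjusted p 0.0510) with high-dose EESF in the edgeR fit over all genes. ABCA15P had 5 to 23 counts, at 0.22 (adjusted p 0.601) and 0.75 (adjusted p 0.0941). ABCC6P2 had 2 to 13 counts, beside 3 to 30 for ABCC6.

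Without the low-count filter, CFTR, with 0 to 11 counts per library, changed by −3.23 on the log2 scale (SE 0.83, adjusted p 0.00138) with high-dose WESF and by −1.72 (SE 0.86, adjusted p 0.117) with high-dose EESF. In vehicle A it was at 0.406, 0.181 and 0.390 CPM, and with high-dose WESF at 0.0423, 0.0493 and 0, which is under the limit that 3 counts set. ABCB4, the phosphatidylcholine floppase of bile with 2 to 16 counts, had 1.58 (SE 0.53, adjusted p 0.0132) and 0.67 (SE 0.60, adjusted p 0.391). ABCA8 had −1.55 (SE 0.54, adjusted p 0.0153) with high-dose WESF. Fitted fold changes at such counts depend on the prior count and give no bound.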
